A study of Homo sapiens with 6 samples.

Results

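143B is an adherent human osteosarcoma cell line, a tumour line of bone. In these data 143B cells grown in DMEM with 10% fetal bovine serum and antibiotics received 80 nmol/L of siRNA with a lipid transfection reagent, and poly(A) RNA was sequenced 36 h later. The transcriptome described here is that of the 3 libraries labelled negative control, which received a control siRNA. They were selected by that label alone, 3 of 6 libraries in all, and no value from the SIGLEC15 siRNA libraries is used. The control cells are therefore transfected cells, and no untransfected library was analysed here. All 58825 genes of the deposited table were examined, 19916 of them protein coding in GENCODE 29. Nothing in the labels tells whether separate cultures were used, so an SD below is the spread over 3 libraries and could be technical alone.

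Osteosarcoma is defined by tumour cells that can lay down bone matrix, and it is placed in the osteoblast lineage, in which the transcription factors RUNX2 and SP7 (osterix) drive collagen I, alkaline phosphatase and mineral-binding proteins. 143B is a derivative of the HOS line that was transformed with an oncogene and selected for loss of thymidine kinase activity, and it is widely used because it spreads to the lung in mice. Its resting state therefore bears on bone differentiation, on the RAS and cell cycle machinery, and on what the cells show to the immune system.

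Levels are given as deposited FPKM, which scales a gene for its length and the library for its size. Levels of different genes are set side by side on this scale. The length scaling was checked only in 1391 genes with a single transcript. There it held within 1% in 85.3%, 85.4% and 85.3% of genes in replicates 1, 2 and 3. For genes with several transcripts it was not checked, so an order between genes by FPKM may depend on the length used. CPM, the count scaled by the library's summed counts, accounts for library size only. A gene counted as expressed at a mean FPKM of at least 1, and absent where all 3 libraries hold a count of 0. Gene counts summed to 61617777, 58818956 and 61858116 in replicates 1, 2 and 3, so a count of 0 allows up to 3 counts, or 0.0487, 0.0510 and 0.0485 CPM. The most frequent count above 0 was 4 in each library, held by 1183, 1078 and 1043 genes against 458, 431 and 405 genes with 3 counts and 275, 228 and 249 with 5. A deposited count may therefore stand for less than 1 sequenced fragment, and the limits cover counting error on the values as given.

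By this threshold 12024 genes were expressed, of which 10367 were protein coding, 52.1% of all coding genes. At the other end 32168 genes had no count in any library, among them 4442 coding genes, or 22.3%. The counts of list members below are to be read beside these shares of 52.1% and 22.3%. The expressed coding genes had a median level of 6.04 FPKM, the highest 10% of them began at 33.0 FPKM and the highest 1% at 256 FPKM. Coding genes took 96.7% of all counts. The 10 genes with the largest mean CPM held 7.86%, 7.57% and 7.78% of the counts of the 3 libraries, and 811, 812 and 763 genes were needed to reach 50% of them. On the FPKM scale the 10 highest genes held 20.3% of the total.

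Transcripts of the mitochondrial genome led the ranking, and 11 of the 20 coding genes with the largest mean FPKM were mitochondrial. The cytochrome c oxidase subunit MT-CO3 stood first at 8847, 8337 and 8703 FPKM. Its neighbour in the ranking, MT-CO2, was at 8858, 7817 and 7913 FPKM, so the ranges of the 2 genes overlapped. The 37 mitochondrial genes together held 22.6% ± 0.67 of the summed FPKM (SD, n = 3) but 6.12% ± 0.11 of the counts; FPKM divides by length, and these genes are short.

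Among nuclear genes, TMSB10, a thymosin that binds actin monomers, was the most abundant at 3137, 3435 and 3960 FPKM. EEF1A1, the elongation factor that brings aminoacyl-tRNA to the ribosome, followed at 2905, 2986 and 3092 FPKM and was first of all genes by CPM (19506, mean). By CPM the chaperones HSP90AA1 and HSPA8, which fold client proteins, also stood among the first 10, at 4214 and 3830 CPM on average. HSPA8 was at 789, 604 and 598 FPKM, with replicate 1 high.

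No library of TMSB10 or EEF1A1 fell below the highest library of GAPDH, the glycolytic dehydrogenase, which had 1282, 1271 and 1210 FPKM. FTL, the ferritin light chain that stores iron, stood at 1123 ± 73 FPKM (SD, n = 3), 4.08 ± 0.090 times the level of the heavy chain FTH1. TMSB10 exceeded its relative TMSB4X by 19.5, 18.5 and 20.4 times in FPKM in replicates 1, 2 and 3.

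The promoters of TMSB10 and EEF1A1 are shown because these are the nuclear coding genes with the largest mean FPKM and because both hold the same TATA-like letters, TATATAAG, here in capitals. Each line gives the 100 bases before the RefSeq start site (GRCh38.p14; TMSB10 on the plus strand of chr2:84905556-84905655, EEF1A1 on the minus strand of chr6:73521033-73521132).
TMSB10: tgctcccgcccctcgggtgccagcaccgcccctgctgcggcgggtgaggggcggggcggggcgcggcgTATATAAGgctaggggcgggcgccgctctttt
EEF1A1: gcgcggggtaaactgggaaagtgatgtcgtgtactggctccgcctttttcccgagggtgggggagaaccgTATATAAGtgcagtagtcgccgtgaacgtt
The motif began 32 bases before the start of TMSB10 and 30 before that of EEF1A1. Searched on the gene's strand from 40 to 20 bases before the start, it occurred in 88 of 27305 RefSeq promoters, or 0.322%. Among 183 promoters of nuclear coding genes at 100 FPKM or more outside the ribosomal proteins, a set that includes TMSB10 and EEF1A1, 6 held it. These are descriptions of letters in a window, not of a factor bound there.

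**Figure D1:**
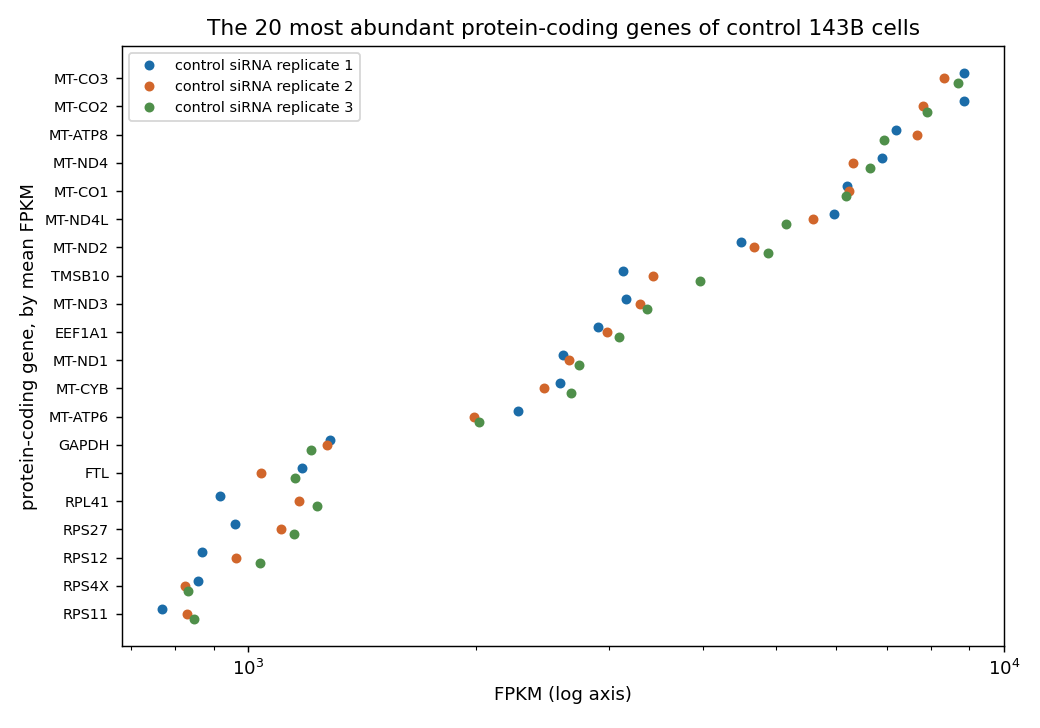
FPKM (log axis) of the 20 protein-coding genes with the largest mean FPKM, with a point for each of the 3 control libraries. The mitochondrial genes fill the top places, with MT-CO3 at 8847, 8337 and 8703 FPKM, and the 3 points of a gene lie close together.

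The 77 cytosolic ribosomal protein genes were all expressed, at a median of 258 FPKM, and held 8.90%, 9.45% and 9.89% of the summed FPKM in replicates 1, 2 and 3. RPL41 was the highest at 918, 1169 and 1235 FPKM, followed by RPS27 at 962, 1104 and 1151 and RPS12 at 869, 964 and 1038. Each of the 3 was lowest in replicate 1. Translation factors added 2.67% ± 0.015, heat shock and chaperone genes 1.95% ± 0.11, led by HSP90AB1, and the glycolytic enzymes 1.16% ± 0.030 of the summed FPKM (SD, n = 3). The 44 collagens, by contrast, held 0.0433% ± 0.0022, and 15 of them were expressed.

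Ribosomal protein messengers often begin with a C followed by pyrimidines, the terminal oligopyrimidine tract through which growth signals govern their translation. Of the 62 ribosomal protein genes with a RefSeq promoter, 42 began with a C and 4 further pyrimidines, or 67.7%, against 4.04% of all 27305 promoters and 9.84% of the 183 promoters of other genes at 100 FPKM or more, EEF1A1 among them. The lines below show 20 bases before the start and 10 after it, with the first 5 transcribed bases in capitals (GRCh38.p14; EEF1A1 minus strand chr6:73521023-73521052, RPL41 plus strand chr12:56116613-56116642, RPS27 plus strand chr1:153990742-153990771, RPS12 plus strand chr6:132814549-132814578, RPS4X minus strand chrX:72277239-72277268).
EEF1A1: cagtagtcgccgtgaacgttCTTTTtcgca
RPL41: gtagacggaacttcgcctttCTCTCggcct
RPS27: gcaggatttccgctttcgctCCTTTccggc
RPS12: ggcatgcgtgcggatgaggcCTCTTtccct
RPS4X: cgcgcgcagtctccagccccAATTTctacg
The first 4 carry the pattern, and RPS4X at 839 ± 18 FPKM (SD, n = 3) does not at its RefSeq start. 

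**Figure D2:**
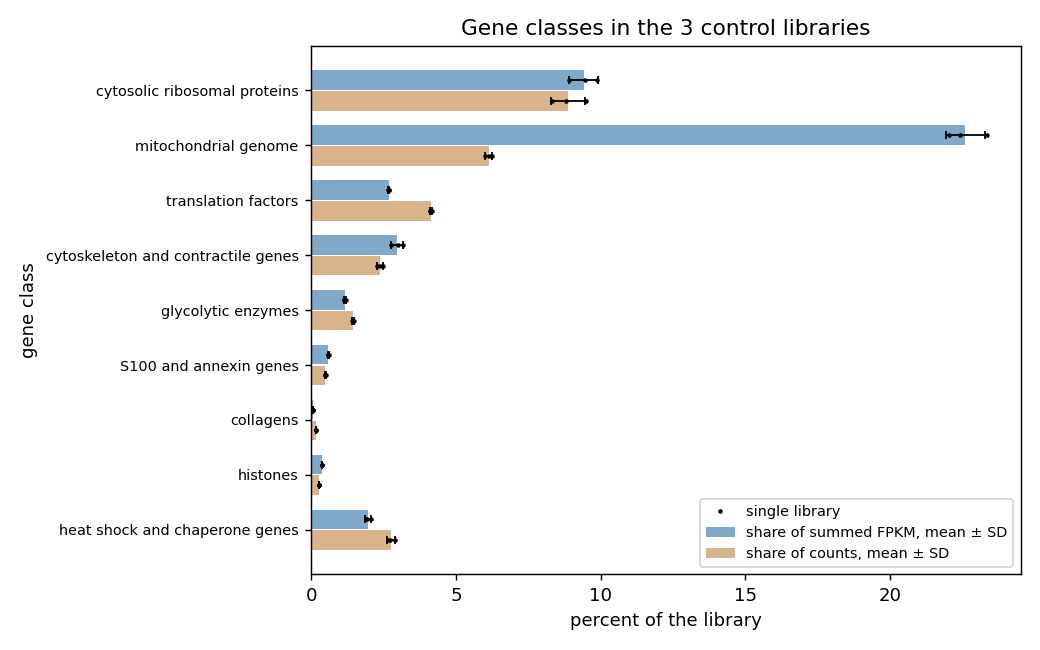
Percent of each library held by 9 gene classes, as a share of summed FPKM (blue) and of counts (tan), with bars for the mean, whiskers for the SD and dots for the 3 libraries. The mitochondrial genome holds 22.6% of summed FPKM and 6.12% of counts, and the collagens 0.0433% of summed FPKM.

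Copies in the genome make some of these levels uncertain. The pseudogenes EEF1A1P5 (943 ± 27 FPKM), MTATP6P1 (1221 ± 86 FPKM) and RPL9P9 (645 ± 89 FPKM; SD, n = 3), named after their values were seen, are near copies of abundant genes, and 45 pseudogenes stood at 100 FPKM or more. The handling of reads that match several places was not stated.

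Several metabolic genes ranked far above the typical gene. PHGDH, which commits a glycolytic intermediate to serine synthesis, was at 258, 278 and 256 FPKM, rank 100 among coding genes. PSAT1, the next enzyme of that route, was at 403, 431 and 413 FPKM, rank 59, while PSPH, the last, was at 21.4 ± 1.9 FPKM (SD, n = 3). By CPM the order was reversed, with PHGDH at rank 15 and PSAT1 at rank 93 among coding genes. Of the one-carbon enzymes fed by serine, MTHFD2 of the mitochondrion was at 119, 122 and 133 FPKM and the cytosolic MTHFD1 at 31.5 ± 1.3 (SD, n = 3). The 3 libraries of MTHFD2 were all above those of MTHFD1. SHMT2 was at 51.4, 32.1 and 53.8 FPKM, with replicate 2 apart, and the cytosolic SHMT1 at 6.22 ± 0.38. ATF4, the stress-response activator known to drive this route and also an osteoblast factor, was at 389, 387 and 415 FPKM. These serine and one-carbon genes were picked after their values were seen.

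All 19 glycolytic enzymes were expressed, with a median of 42.4 FPKM. After GAPDH came ENO1 (493, 501 and 531 FPKM) and LDHB, the lactate dehydrogenase subunit of oxidative tissues. LDHB was 2.14, 2.57 and 2.74 times as high as LDHA in FPKM in the 3 libraries. ALDOA was at 88.2, 184 and 101 FPKM with replicate 2 apart. A readthrough locus on the same strand, AC093512, was at 450, 121 and 397 CPM in the same libraries, and the summed CPM of both genes differed by 1.14 times at most, so the division between the 2 annotations and not their sum varied.

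Of 1540 genes that the table annotates as RNA polymerase II transcription factors 823 were expressed, with a median over all of them of 1.18 FPKM. This was near the values of all coding genes, of which 52.1% were expressed, with a median of 1.23 FPKM. YBX1, a cold-shock domain protein, was the highest at 441, 447 and 457 FPKM, and the chromatin protein HMGA1 was at 236, 248 and 238. FOXR1, a forkhead factor, was at 73.6, 82.6 and 80.2 FPKM, above 96.4% of the expressed coding genes. Its rank among coding genes was 377 by FPKM but 1670 by CPM. The 3 libraries of each gene lay close together, and the genes were picked from the annotation after their values were seen.

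The osteoblast programme was present only in part. Of 12 osteoblast transcription factors 8 were expressed, among them ATF4, FOSL1, MSX1, TWIST1, DLX5, MSX2 and DLX6. The share over all coding genes was 52.1%. FOSL1, the AP-1 subunit Fra-1, was at 135, 129 and 138 FPKM, and MSX1, a homeobox factor of craniofacial bone, at 12.4, 8.45 and 11.9. RUNX2, the master regulator of the lineage, was at 0.352, 0.365 and 0.265 FPKM, below the threshold in every library. SP7, which acts downstream of RUNX2, had 0 counts in all 3 libraries. Both regulators that define the lineage were thus below the threshold.

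Of 20 genes of bone matrix and osteoblast differentiation 7 were expressed and 6 had no count. Over all coding genes 52.1% were expressed and 22.3% had no count. SPARC, osteonectin, was at 64.4, 62.6 and 60.8 FPKM, and SPP1, osteopontin, at 15.8 ± 0.41 (SD, n = 3). Both were even across the libraries. COL1A1, the main chain of bone collagen, was at 1.05, 1.16 and 1.08 FPKM, so that SPARC exceeded it 57.2 ± 3.9 times (SD, n = 3). COL1A2, the other chain of collagen I, had 0, 8 and 0 counts. ALPL, alkaline phosphatase, was at 0.0674 ± 0.076 FPKM and BGLAP, osteocalcin, at 0.146 ± 0.087 (SD, n = 3). The readthrough locus PMF1-BGLAP was at 11.4, 13.8 and 6.18 FPKM. Whether reads of BGLAP were assigned to it was not tested. IBSP (bone sialoprotein), DMP1, MEPE, MGP, OMD and TNFSF11 (RANKL) had no count in any library. In these cells labelled osteosarcoma the list was thus divided, with SPARC and SPP1 above 10 FPKM, COL1A1 just past the threshold and COL1A2, ALPL, BGLAP and IBSP at or near 0.

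**Figure D3:**
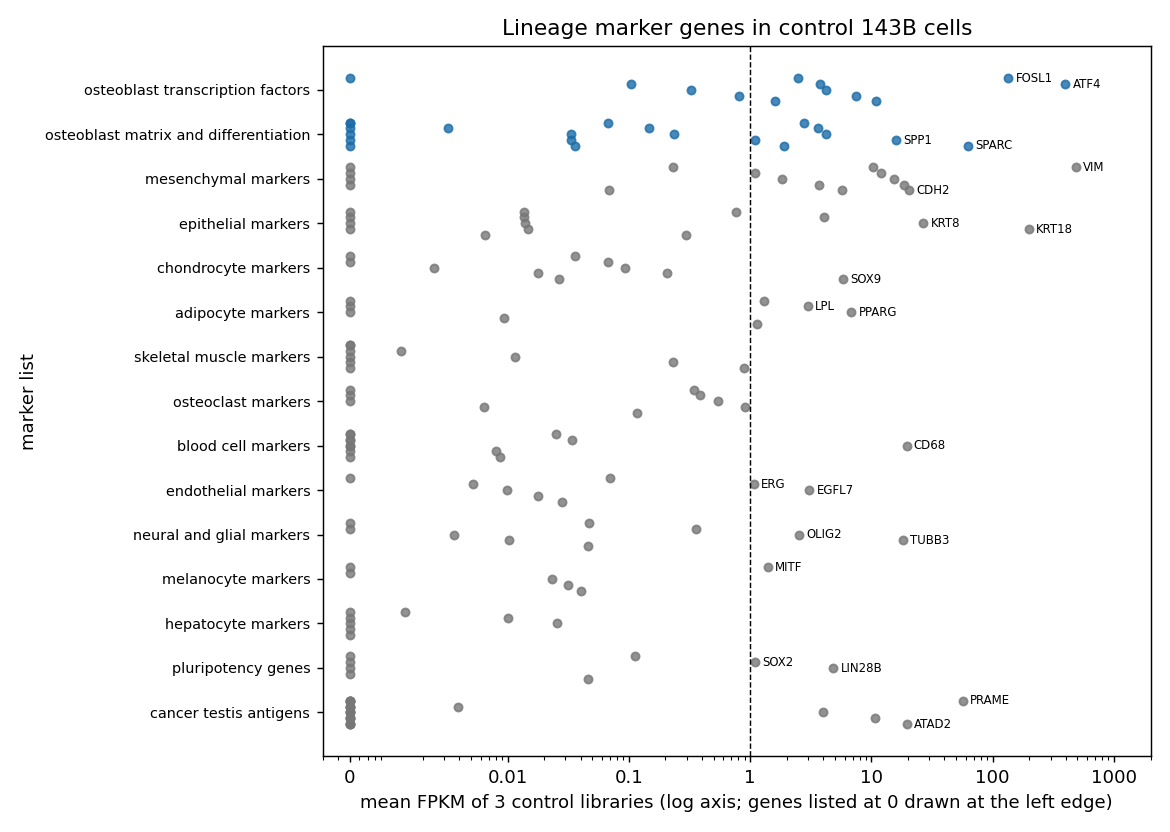
Mean FPKM over the 3 control libraries (log axis, genes listed at 0 drawn at the left edge) of the members of 15 marker lists, with the 2 osteoblast lists in blue and the dashed line at 1 FPKM. VIM reaches 482 FPKM and KRT18 198 FPKM, while most members of the other lists lie below 1 FPKM.

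Mesenchymal markers were mixed, with 10 of 16 expressed and 4 absent, against 52.1% expressed and 22.3% absent over all coding genes. The intermediate filament VIM was at 503, 473 and 470 FPKM, N-cadherin (CDH2) at 21.1, 20.6 and 19.8, and the ecto-nucleotidase NT5E (CD73) at 20.2, 18.6 and 17.2. PDGFRA, a receptor of mesenchymal progenitors, was at 10.3 ± 1.1 FPKM, while PDGFRB was at 0.0688 ± 0.064 (SD, n = 3). THY1 (CD90), a standard marker of mesenchymal stromal cells, the proteoglycans DCN and LUM, and FAP of activated fibroblasts had no count in any library. Absence of a marker in bulk RNA cannot tell fewer cells of a type from less RNA per cell.

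The simple-epithelium keratins KRT18 and KRT8 were high although epithelial junction genes were not. KRT19, another such keratin, did not reach a mean of 1 FPKM. KRT18 was at 191, 179 and 223 FPKM and its partner KRT8 at 25.7, 27.3 and 27.6, a ratio of 7.35 ± 0.76 (SD, n = 3). EPCAM, an epithelial adhesion molecule, was at 3.88, 4.40 and 4.02 FPKM. CDH1 (E-cadherin), the epithelial regulator GRHL2 and the basal keratins KRT5 and KRT14 had no count. Only KRT18, KRT8 and EPCAM, 3 of 14 epithelial markers, were expressed, and VIM exceeded KRT18 by 2.64, 2.65 and 2.11 times in FPKM.

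Markers of other lineages were mostly near 0, with a few exceptions. The chondrocyte factor SOX9 was at 4.88, 6.44 and 6.09 FPKM, but it was the only one of 10 chondrocyte markers expressed, and COL2A1, the collagen of cartilage, was at 0.0266 ± 0.013 (SD, n = 3). Of 8 adipocyte markers 4 were expressed, led by the nuclear receptor PPARG at 7.25, 6.48 and 6.75 FPKM, while LEP, ADIPOQ and CIDEC had no count. MYOD1, MYOG, MYF5, MYF6, DES and CKM, which mark skeletal muscle, had no count. None of 10 skeletal muscle, 9 osteoclast or 8 hepatocyte markers reached a mean of 1 FPKM. The highest muscle member was MYH3, embryonic myosin, at 0.891 ± 0.11 FPKM, and the highest osteoclast member was NFATC1 at 0.515, 1.27 and 0.939 FPKM. NFATC1 passed the threshold in replicate 2, and without replicate 1 it was the 1 osteoclast marker expressed.

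Of 13 blood cell markers only CD68, a lysosomal protein used as a macrophage marker, was expressed, at 16.4, 22.0 and 20.1 FPKM. PTPRC (CD45), carried by nearly all leukocytes, and LYZ, CD14, CD3E, MS4A1, GATA1 and HBB had no count in any library. Of 9 neural markers the tubulin TUBB3 was at 18.1 ± 1.3 FPKM and OLIG2, a factor of oligodendrocyte precursors, at 2.53 ± 0.65 (SD, n = 3). EGFL7 and the ETS factor ERG were the only endothelial genes of 8 expressed, at 3.07 ± 0.41 and 1.07 ± 0.066 FPKM, while CDH5 had no count. Among the stem cell genes LIN28B, which blocks the let-7 miRNAs, was at 5.14, 5.20 and 4.23 FPKM and SOX2 at 1.43, 1.02 and 0.846, whereas NANOG, LIN28A, DPPA4 and ZFP42 had no count.

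The antigen PRAME stood apart in the list of cancer testis antigens. PRAME was at 57.7, 53.7 and 57.6 FPKM. The other expressed members were ATAD2, MAGED2 and MAGED1, which many tissues express. Of the 21 listed genes 16 had no count, including every MAGE-A, MAGE-C, SSX and CTAG gene on the list.

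A stretch of chromosome 9p21 was silent. CDKN2A, which encodes the cell cycle inhibitor p16, CDKN2B, which encodes p15, and the antisense transcript CDKN2B-AS1 had 0 counts in all 3 libraries. MTAP, the methionine salvage enzyme next to them, had 0, 0 and 7 counts. From the start of MTAP to the last gene before DMRTA1 (21802543 to 22214672 in the table's coordinates on chromosome 9, where 81.3% of gene IDs have the start and end of GENCODE 29 on GRCh38) the table holds 15 genes, 14 of them without a count. Of these 15 genes 4 are protein coding, and the others are mostly noncoding entries and pseudogenes. Genes with no count made up 54.7% of all genes, 22.3% of coding genes, 64.0% of long noncoding genes and 74.0% of pseudogenes. Silent runs of at least 3 neighbouring coding genes occurred 357 times in the genome. The longest lay around olfactory receptor and keratin-associated protein genes, so the number does not show how common silence of genes like MTAP is. The flanks of the interval were expressed. KLHL9, a ubiquitin ligase adaptor on one side, had 5730, 5468 and 4881 counts (13.7, 13.7 and 11.6 FPKM), and DMRTA1 on the other had 992, 821 and 794 counts (2.43, 2.10 and 1.93 FPKM).

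Between KLHL9 and MTAP the interferon genes IFNA1, IFNA2, IFNA6, IFNA8 and IFNA13 had no count in any library. The host transcript of miR-31, MIR31HG, had 133, 105 and 111 counts, and IFNE, an interferon of epithelia, 36, 12 and 44. FOCAD, farther out on the same arm, was at 7.90 ± 0.46 FPKM (SD, n = 3). HACD4, between FOCAD and KLHL9 and named after its values were seen, had 7, 11 and 8 counts, so a low level was not confined to the genes from MTAP onward. DNA copy number was not measured here, so RNA at 0 is the only reading of the interval.

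The upstream sequences of 2 silent and 2 expressed genes of the interval are shown, since the counts change between them. Each line gives the 100 bases before the RefSeq start (GRCh38.p14), with CG dinucleotides, the sites of DNA methylation, in capitals: MTAP on the plus strand of chr9:21802536-21802635, CDKN2B on the minus strand of chr9:22009306-22009405, KLHL9 on the minus strand of chr9:21335405-21335504 and DMRTA1 on the plus strand of chr9:22446724-22446823.
MTAP: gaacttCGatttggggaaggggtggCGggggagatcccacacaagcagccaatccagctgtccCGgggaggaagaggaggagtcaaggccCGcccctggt
CDKN2B: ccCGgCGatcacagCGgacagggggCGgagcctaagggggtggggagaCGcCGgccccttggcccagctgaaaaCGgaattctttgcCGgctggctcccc
KLHL9: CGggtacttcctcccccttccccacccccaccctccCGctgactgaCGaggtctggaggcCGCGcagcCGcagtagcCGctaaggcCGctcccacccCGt
DMRTA1: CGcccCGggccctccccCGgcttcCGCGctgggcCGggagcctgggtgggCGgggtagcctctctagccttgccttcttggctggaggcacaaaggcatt
Over the 250 bases before the start, the observed over expected ratio of CG dinucleotides was 0.721 for MTAP and 0.654 for CDKN2B, against 0.748 for KLHL9 and 0.548 for DMRTA1, and the median of all 27305 promoters was 0.556. These 2 silent and 2 expressed genes overlapped in this ratio. Other genes of the interval were not compared, and methylation was not measured.

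**Figure D4:**
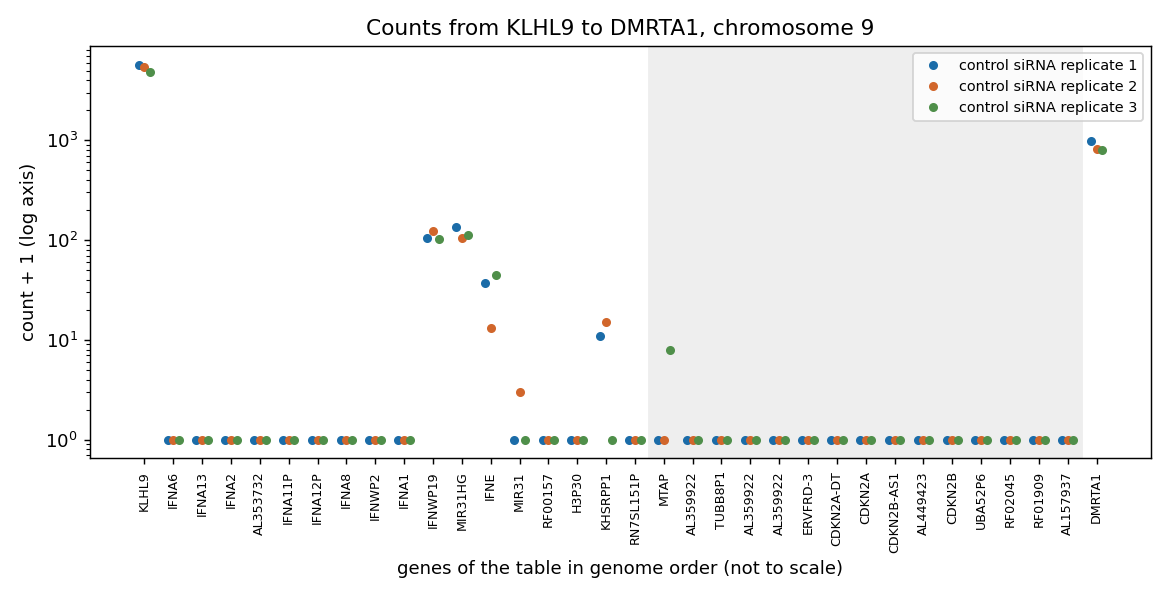
Count plus 1 (log axis) in each control library for every gene of the table from KLHL9 to DMRTA1 on chromosome 9, in genome order and not to scale, with the genes from MTAP to the last before DMRTA1 shaded. In the shaded block the only value above 0 is MTAP with 7 counts in replicate 3, while KLHL9 and DMRTA1 have between 794 and 5730 counts.

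The rest of the RB pathway was present. CCND1, the D cyclin that starts RB phosphorylation, was at 116, 121 and 114 FPKM, 10.2 ± 0.66 times CCND2 (SD, n = 3). Its kinase CDK4 was at 56.8, 61.3 and 54.2 FPKM, and CDK6 at 8.49 ± 0.62. RB1 itself was at 10.8, 8.27 and 8.60 FPKM and the downstream activator E2F1 at 24.0, 24.9 and 27.2. Of the 20 genes of the list 18 were expressed, CDKN2A and CDKN2B being the exceptions. The related inhibitors CDKN2C and CDKN2D were at 2.43 ± 0.42 and 2.49 ± 0.26 FPKM (SD, n = 3).

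All 20 proliferation genes were expressed, at a median of 47.2 FPKM. The replication clamp PCNA was at 179, 145 and 187 FPKM, the mitotic cyclin CCNB1 at 119, 124 and 126, and the proliferation antigen MKI67 at 37.7, 35.4 and 27.6. The mitotic kinase AURKA was at 44.5, 98.5 and 93.6 FPKM, with replicate 1 apart.

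Genes of the DNA damage response were mostly expressed, 19 of the 23 listed, and none was without a count. The highest were GADD45A (22.8, 29.5 and 30.5 FPKM), the CDK inhibitor CDKN1A (17.2, 18.4 and 18.3) and the death effector BAX (16.1, 15.9 and 17.1). MDM2, a ubiquitin ligase that is amplified in some bone sarcomas, was at 2.41 ± 0.22 FPKM (SD, n = 3). Of 20 tumour suppressors linked to osteosarcoma 18 were expressed. BAP1 was at 12.9 ± 0.55 and the helicase RECQL4 at 5.37 ± 0.74 FPKM (SD, n = 3). Expression says nothing of mutations in these genes.

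Genes of the RAS family, small GTPases that relay growth signals, were expressed. NRAS was at 61.3, 61.1 and 59.5 FPKM and HRAS at 20.9, 21.3 and 25.5. The libraries of NRAS were all above those of HRAS. Of 23 genes of RAS and PI3K signalling 21 were expressed, the exceptions being BRAF at 0.599 ± 0.067 and INPP4B at 0.457 ± 0.020 FPKM (SD, n = 3). The kinase MAP2K1 was at 28.3 ± 2.4 FPKM (SD, n = 3).

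Of 30 receptor tyrosine kinases 15 were expressed, near the share of 52.1% of all coding genes. AXL, a receptor linked to invasion, was the highest at 56.2, 59.6 and 57.0 FPKM, 2.11 ± 0.071 times EPHA2 (SD, n = 3), which was at 27.6, 27.4 and 27.0. EGFR was at 20.4, 18.9 and 16.5 and MET, the receptor of hepatocyte growth factor, at 17.6, 16.5 and 13.8. The ranges of EGFR and MET overlapped. IGF1R, a tested target in bone sarcoma, was at 7.07, 6.79 and 6.55 FPKM. The collagen receptor DDR2 was at 4.11, 12.4 and 11.8 FPKM, with replicate 1 apart. ROS1 had no count.

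MYC was at 2.71, 2.85 and 3.50 FPKM, below its partner MAX (14.8, 16.4 and 14.6) in every library, and MYCN and MYCL did not reach the threshold. In the telomere list 14 of 15 genes were expressed. The exception was TERT, the catalytic subunit of telomerase, at 0.329, 0.403 and 0.393 FPKM. The RNA-binding subunits NOP10, NHP2 and DKC1, which also serve ribosome synthesis, were at 270 ± 15, 116 ± 8.3 and 37.7 ± 1.0 FPKM. ATRX, whose loss goes with the alternative pathway of telomere lengthening, was at 3.16 ± 0.24 FPKM (SD, n = 3).

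All 22 genes of nucleotide synthesis and salvage were expressed, including the gene whose enzyme activity was selected against in deriving the line. TK1, thymidine kinase, was at 12.1 ± 0.78 FPKM (SD, n = 3), in every library above the mitochondrial TK2 at 1.53, 1.80 and 1.85. TYMS, which makes thymidylate without salvage, was at 157, 162 and 139 FPKM, 12.7 ± 1.7 times TK1 (SD, n = 3). A level of RNA does not show whether the TK1 message encodes an active enzyme. IMPDH2, of guanine nucleotide synthesis, was at 126, 140 and 149 FPKM and the salvage enzyme HPRT1 at 69.8, 72.2 and 71.7.

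Secreted and matrix genes were led by a protease. MMP1, interstitial collagenase, was at 704, 673 and 692 FPKM, rank 25 among coding genes and the highest of 267 genes that the table annotates to the extracellular matrix, of which 83 were expressed. The matricellular proteins CCN2 and CCN1 followed at 107, 138 and 119 and at 112, 118 and 116 FPKM. Of 219 genes annotated to cytokine activity 50 were expressed. CXCL8, which attracts neutrophils, was at 25.1, 23.7 and 25.9 FPKM and IL1A at 23.0, 19.5 and 21.4. BMP7, a bone morphogen, was at 12.3, 12.5 and 12.1 FPKM. These genes were picked from the annotation after their values were seen.

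Class I antigen presentation was expressed and class II was not. B2M, the shared class I light chain, was at 56.1, 54.3 and 54.2 FPKM. HLA-E, HLA-C and HLA-B were at 17.6 ± 0.99, 13.1 ± 0.25 and 10.2 ± 1.1 FPKM (SD, n = 3), with reads of these near-identical genes possibly shared. HLA-DRA and HLA-DQA1 had no count, HLA-DPA1 had 4, 0 and 7 counts, and CIITA, the class II activator, was at 0.211 ± 0.13 FPKM.

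None of 13 sialic acid-binding Siglec genes reached 1 FPKM and 8 had no count, SIGLEC1, SIGLEC5, SIGLEC6, SIGLEC7, SIGLEC8, SIGLEC11, SIGLEC14 and MAG. SIGLEC15, the gene targeted in the study, had 12, 10 and 22 counts in the control libraries, or 0.0429, 0.0385 and 0.0813 FPKM. It stood second among the Siglecs after CD22 at 0.0993 ± 0.032 FPKM (SD, n = 3). The counts of SIGLEC15 were above the limit of 3 in each control library. That limit holds for counts as given, and a count may stand for less than 1 sequenced fragment, so detection cannot be read from it. The FPKM of SIGLEC15 lay below 0.161, the 99th percentile of gene families with no known use in such cells.

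Surface antigens under study as targets in osteosarcoma ranged widely, with 14 of 20 expressed. The death receptor TNFRSF10B was at 30.2, 29.7 and 28.0 FPKM and ALCAM at 16.4, 15.3 and 14.4. CD276 (B7-H3) was at 3.28, 2.97 and 3.19 FPKM and B4GALNT1, the synthase of ganglioside GD2, at 3.44, 2.83 and 3.00, while ST8SIA1, the enzyme before it, was at 0.212 ± 0.059 (SD, n = 3). PVR, a ligand of natural killer cell receptors, was at 5.71, 6.20 and 12.5 FPKM, with replicate 3 apart. FAP had no count.

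Cytoskeletal genes were all expressed, 32 of 32, with TUBB at 675, 667 and 662 and ACTB at 457, 624 and 726 FPKM. The actin-binding PFN1 was at 300, 630 and 675 FPKM and TUBA1A at 19.6, 45.2 and 42.2, both with replicate 1 low. Of 19 S100 and annexin genes 15 were expressed, led by S100A11 (457 ± 26 FPKM), S100A6 (333 ± 25) and ANXA2 (199 ± 12; SD, n = 3). S100A8, S100A9 and S100B had no count.

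Families with no known use in such cells give the background of the table. Of 953 olfactory and taste receptor, keratin-associated, beta-defensin and lymphocyte receptor segment genes 879 had no count, or 92.2%, and their 99th percentile was 0.161 FPKM. Only 3 reached the threshold: OR2W3 at 1.35, 0.90 and 0.81 FPKM, KRTAP2-3 at 1.02, 1.57 and 1.56, and TRAC, the constant segment of the T cell receptor alpha chain, at 5.30, 4.93 and 4.13. The level at which RUNX2, TERT and BRAF stood, between 0.327 and 0.599 FPKM, was above that percentile, but RUNX2 and TERT lay below the 0.542 FPKM that is the 99th percentile of the keratin-associated proteins alone.

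The long noncoding RNAs were low, with 658 of 14915 expressed, 4.41% of all. SNHG29, a host of small nucleolar RNAs, was the highest at 198, 216 and 228 FPKM. NORAD, which binds PUMILIO proteins, was at 94.8, 95.7 and 86.9 FPKM, and the host genes ZFAS1 and GAS5 at 76.2, 94.7 and 98.2 and at 39.1, 46.4 and 48.7. SNHG6 and SNHG19 were at 84.8 ± 8.8 and 66.7 ± 17 FPKM (SD, n = 3). TUBA1B-AS1 at 204 ± 28 FPKM overlaps the abundant tubulin gene TUBA1B on the opposite strand, and whether counting used strand was not stated. The 3 remaining places among the first 10 were near-identical copies on chromosome 21 that carry clone names, at 134 ± 32, 85.3 ± 23 and 39.6 ± 10 FPKM.

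Across most genes the 3 libraries were alike. Over the 26657 genes with a count, Pearson's r of log2(FPKM + 1) between libraries was 0.988, 0.987 and 0.988, as a description over genes, which are not independent. The median coefficient of variation of the expressed coding genes was 7.91%, and 86.9% of them had one up to 20%. The biological coefficient of variation estimated by edgeR from 17176 genes was 22.1%, and 14.2% in the most abundant 10% of them.

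A minority of abundant genes nevertheless had 1 library far from the others. Among 3491 coding genes with a mean of at least 10 FPKM the highest library exceeded the lowest by a median of 1.13 times in CPM. In 113 genes, or 3.24%, the ratio was at least 2, and in 40 at least 3. In 55 genes 1 library was at least 2-fold low while the others lay within 1.2-fold of each other, and in 19 genes 1 library was high in that way. Replicates 1, 2 and 3 were the library apart in 29, 23 and 22 of these genes, so no single library accounted for them.

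The 10 genes with the largest coefficient of variation had between 216 and 18245 counts in each library. ZNF146, a zinc finger gene, had 1428, 1666 and 10798 counts, or 23.2, 28.3 and 175 CPM. CHMP1B, of the ESCRT-III membrane scission complex, had 3710, 235 and 3820 counts, or 60.2, 4.0 and 61.8 CPM. RAB31, a vesicle GTPase, was at 209, 46.6 and 47.8 CPM, and CAB39 at 70.8, 257 and 56.9. The 14-3-3 gene YWHAB, named after its values were seen, was at 691, 186 and 716 CPM, from 42551, 10936 and 44264 counts. Counting error on such numbers is far smaller than these gaps.

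Of the 113 genes 22 overlapped another gene with at least 1 CPM on the same strand, or 19.5%, against 6.53% of all 3491. In 14 the ratio fell below 1.5 when the overlapping genes were added. The readthrough locus ATP6V1G2-DDX39B was at 137, 81.7 and 3.49 CPM, and DDX39B within it at 212, 302 and 362, so their sum differed by 1.10 times at most. The overlapping annotation entries named MATR3 were similar. The more variable entry was at 283, 36.4 and 295 CPM. Its sum with the other entry and the overlapping SNHG4 gave a ratio of 1.44. In the others of the 22 the ratio stayed at 1.5 or more, as in CHMP1B, where it was 5.46 with GNAL added. Genes of the 113 outside the 22 had no such partner. The longest annotated 3' UTR had a median of 1645 bases in the 113 genes and 994 in all 3491. Whether this or the assignment of reads plays a part in the gaps was not tested.

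**Figure D5:**
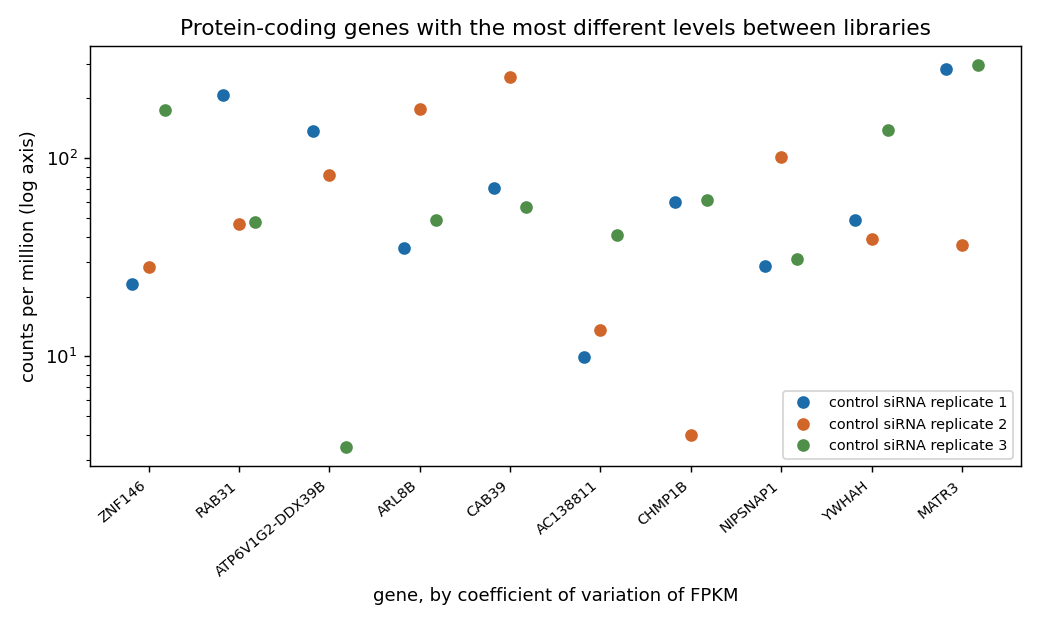
CPM (log axis) in each control library for the 10 protein-coding genes with a mean of at least 10 FPKM and the largest coefficient of variation. In ZNF146, RAB31, CAB39, NIPSNAP1, CHMP1B and MATR3 a pair of libraries lies close together and the remaining library stands apart.

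Coding length differed between the abundance classes on the FPKM scale, with no single trend. The median coding length was 674 bases in the 286 nuclear coding genes at 100 FPKM or more, 1140 bases from 10 to 100 FPKM, 1482 bases from 1 to 10 FPKM and 1434 bases above 0 and under 1 FPKM. It was 967.5 bases in genes with no count, so the genes at both ends of the range were shorter than those between. Without the ribosomal protein genes the first value was 792 bases. Ranked by CPM instead, the 2000 genes at 100 CPM or more had a median of 1320 bases, against 1350 bases for all nuclear coding genes at 1 FPKM or more.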

How the data were processed

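RNA of 3 control siRNA libraries of 143B cells was analysed. The authors deposited gene counts and FPKM values in 1 table, per the file headers; HISAT, StringTie and edgeR are named in the submitters' processing notes, and their versions, the genome build and the strand setting were not given in the sources used here. A deposited FPKM of 0.0001 stands in place of 0 and was read as 0, also for 7 values with a count. Gene types came from GENCODE 29 by gene ID (58552 of 58825 IDs matched), and clone names took a symbol by ID where the reference names gave one. CPM is the count over the library's summed gene counts. Dispersion was estimated with edgeR 4.0.16 (TMM scaling, intercept only) and tested on simulated data. The simulated counts were whole draws with the same dispersion for all genes. Counts that stand for less than 1 sequenced fragment were therefore not covered. Other values were computed with Python 3.11.15 and pandas 2.3.3. No test was run, since there is 1 group. Named genes were the 20 highest coding genes by FPKM, the 10 highest by CPM, the 10 highest long noncoding RNAs of at least 200 bases, up to 6 members of each list with its absent members and those of known role, the 10 most variable coding genes, and family members at 1 FPKM or more. Some members are not reported here. Members and lists were chosen with earlier results of these data known. Promoters came from RefSeq (GRCh38.p14). They covered 71.6% and 74.3% of coding genes with no count and under 1 FPKM, so promoters were not compared across all abundance classes, and 80.5% to 84.3% of the ribosomal protein and other genes at 100 FPKM or more whose motifs are given.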

Additional observations from a re-analysis of the deposited data

How the results depend on the processing

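Single libraries left out 1 at a time gave 12005 to 12030 expressed genes, 33338 to 33650 genes with no count, 7.68% to 7.82% of counts in the 10 most abundant genes, and a biological coefficient of variation of 21.5% to 22.9%. All 132 levels of named genes stayed within their SD when a library was left out. With 3 libraries this holds whatever the values, so it says nothing of how stable the levels are. A threshold of 5 FPKM in place of 1 left 6396 expressed genes. The 10 most abundant genes held 20.3% of summed FPKM, or 5.19% of counts with the mitochondrial genome left out. On FPKM 233 genes held 50% of the total, against 801 on counts averaged over libraries. Shares of counts were 8.86% for ribosomal proteins and 6.12% for the mitochondrial genome. The biological coefficient of variation was 34.4% with no filter on low counts and 16.8% for genes at 5 FPKM or more, and the lowest correlation between libraries was 0.972 on log2(FPKM + 0.1). The median coding length of the most abundant class was 1320 bases on CPM and 1350 bases with all genes at 1 FPKM or more as 1 class. The rank by CPM was within 1 SD of the rank by FPKM over libraries for 5 of 44 named genes. For single lists, 172 of 192 counts were equal to or within 1.5 times of the reported count. The 192 include counts with a library left out, which seldom moved. At 5 FPKM the osteoblast transcription factors fell from 8 to 4, the osteoblast matrix genes from 7 to 2 and the receptor tyrosine kinases from 15 to 8. Other lists held, as did the proliferation genes at 20. Promoter features by abundance class were not run, since promoters covered too few genes of 2 classes. With 3 libraries of 1 group, no difference between conditions can be read from these values. No paired analysis was possible because 1 group is described and nothing is compared.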

Other observations

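Genes of core machinery were nearly all expressed. In the pathway annotation of the table all 44 genes of aminoacyl-tRNA synthesis and all 23 of protein export reached 1 FPKM, as did 35 of 36 of DNA replication, 44 of 45 of nucleotide excision repair, 127 of 133 of the spliceosome and 42 of 45 of the proteasome. The proteasome members with no count were IFNG, PSMA8, a testis subunit, and PSMB11, the thymus subunit. In the citrate cycle 29 of 31 were expressed, and PCK1 and PDHA2, enzymes of liver and testis, had no count. Of 124 cell cycle genes 115 were expressed, and CDKN2A, CDKN2B, GADD45G and WEE2 had no count.

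A stretch of chromosome 1p12 combined high and silent neighbours; it was picked after its values were seen. Among the 13 coding genes from WDR3 to NOTCH2, 6 had no count. TBX15, a limb and skeletal T-box factor, was at 67.3, 62.8 and 63.6 FPKM, WARS2 at 53.7, 50.2 and 50.5 and the zinc finger gene ZNF697 at 77.0, 72.1 and 69.8. PHGDH lies next to ZNF697. Each of these 4 stood above at least 94.0% of the expressed coding genes. WARS2, the mitochondrial tryptophanyl-tRNA synthetase, was the highest of 17 mitochondrial aminoacyl-tRNA synthetases at a mean of 51.4 FPKM, followed by 33.7 FPKM, and the median of the others was 7.32 FPKM. Flanking NOTCH2 was at 5.94 FPKM, and copy number was not measured here.

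Along the chromosomes 357 runs of at least 3 neighbouring coding genes had no count. The longest held 42 genes around an olfactory receptor cluster on chromosome 11 and the next 35 genes around keratin-associated proteins on chromosome 21.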
